A study of Mus musculus with 14 samples.

Results

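Genes of the cell cycle and of DNA replication were followed in mouse dendritic cells that had received a cathepsin inhibitor, a stimulus, both or neither. The 59 genes were listed by their role in the cycle, and each was read from the brightest probe set that the array annotation assigns to that gene alone. Such a probe set was found for 58 of the 59, all but Ccnb1, and 57 were bright enough to test among the 12192 tested of 18193 genes measured. Tyms, the thymidylate synthase, exceeded the overall median of the arrays on 1 array only, lay between 7.15 and 7.54 log2 on the 14 arrays and was left untested. Of the 57 tested members 54 lay above the overall median on all 14 arrays. The exceptions were Cdc6, Mybl2 and Kif15.

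The cells were bone-marrow-derived dendritic cells of BALB/c mice, grown from marrow progenitors for 8 days in recombinant granulocyte-macrophage colony-stimulating factor. Cultures were pre-treated for 1 h with 0.01% DMSO as the solvent, with 5 µM CLIK148, an inhibitor of cathepsin L, or with 5 µM CA074Me, an inhibitor of cathepsin B. They were then left unstimulated or received CpG at 25 µg/mL, an oligonucleotide ligand of Toll-like receptor 9, or tumour necrosis factor alpha (TNF) at 500 U/mL. The 7 groups were solvent, CLIK148 alone, CA074Me alone, solvent plus CpG, solvent plus TNF, CLIK148 plus CpG and CA074Me plus TNF, each with 1 array from each of 2 independent experiments. The 14 arrays include neither CLIK148 with TNF nor CA074Me with CpG, and all groups share the growth factor. The age of the mice and the time from stimulus to harvest were not stated in the labels used here.

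In dividing cells, D-type cyclins with Cdk4 and Cdk6 open the path from G1 to S phase, and cyclin E with Cdk2 together with the E2F transcription factors completes it. Licensing factors then load the Mcm helicase at replication origins, and enzymes such as ribonucleotide reductase supply nucleotides for DNA synthesis. Cyclins A and B with Cdk1 drive mitosis, in which kinetochore proteins, kinesins and condensins move and shape the chromosomes, while inhibitors such as p21 hold the kinases back. Marrow cultures with this growth factor begin as dividing progenitors, and maturing dendritic cells leave the cycle.

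All values are log2 expression on the deposited scale, and differences are log2 differences with their standard error from a model over all 14 arrays (limma, with the experiment as a block). Members with an adjusted p under 0.05, Benjamini-Hochberg over all 12192 genes, are said to have risen or fallen. Where 2 values are given for a group, the first is the array of experiment 1 and the second that of experiment 2. In bulk RNA, fewer dividing cells and less of these transcripts per cell cannot be told apart.

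With CpG after solvent, 23 of the 57 members were called, where 19.8% of all tested genes were. Of the 23 members 21 fell and 2 rose, against 13.7% of all genes that fell and 6.18% that rose. The median difference over the members was -0.29, against -0.05 over all genes. With TNF after solvent 6 members were called, where 3.11% of all genes were. All 6 fell, where 1.97% of all genes fell and 1.14% rose. The members' median was -0.35 with TNF, against -0.05 over all genes. In the mean of both arrays 50 of the 57 lay below solvent with CpG and 50 with TNF, and the lists differ by Cdk6 and Uhrf1. The share of all genes below solvent in that mean is not given here. With both stimuli the median of all genes was itself negative. Both comparisons use the same solvent arrays. With CpG the arrays of 29 members did not overlap those of solvent, where 43.1% of all genes did not, and 25 of the 29 were lower, where 26.4% of all genes were.

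The calls rest on the pairing of arrays within an experiment. In a fit without the experiment as a block 0 members were called with CpG and 0 with TNF, where 1.92% and 0.115% of all genes were. With it, 34 members had an unadjusted p under 0.05 with CpG and 39 with TNF, where 37.3% and 20.5% of all genes did. Single arrays also moved the counts. For CpG, fewer members were called without either solvent array or without the first CpG array, and more without the second CpG array. The members' median with CpG then lay between -0.44 and -0.23. For TNF, fewer were called without any of the solvent or TNF arrays, and the members' median lay between -0.41 and -0.27. With an array left out the share of all genes called is not given here. These counts therefore do not show whether the members moved more than other genes.

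Taken by array, all 4 stimulated groups lay below all 3 unstimulated groups for 43 of the 57 members in experiment 1 and for 30 in experiment 2. The shares over all genes were 32.2% and 23.9%. In both experiments this held for 27 members, against 18.2% of all genes. Ccnd2 and Cdkn1a were the members that lay above in both, where 6.93% of all genes did. The mean over the 53 members other than the cell cycle inhibitors was 10.33 to 10.36 log2 on the unstimulated arrays of experiment 1 and 9.93 to 9.98 on the stimulated ones. In experiment 2 it was 10.51 to 10.60 and 10.29 to 10.38. The groups thus did not overlap within an experiment, but the stimulated arrays of experiment 2 reached the unstimulated level of experiment 1. Such a separation was also seen outside the cycle. The mean of 8 reference genes was 12.28 to 12.36 and 12.04 to 12.24 in experiment 1. In experiment 2 it was 12.31 to 12.37 and 12.22 to 12.29. The means of dendritic cell markers and of macrophage and monocyte markers separated in the same direction in both experiments. Those of granulocyte, myeloid progenitor, lymphocyte and erythroid lists did not.

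**Figure D1:**
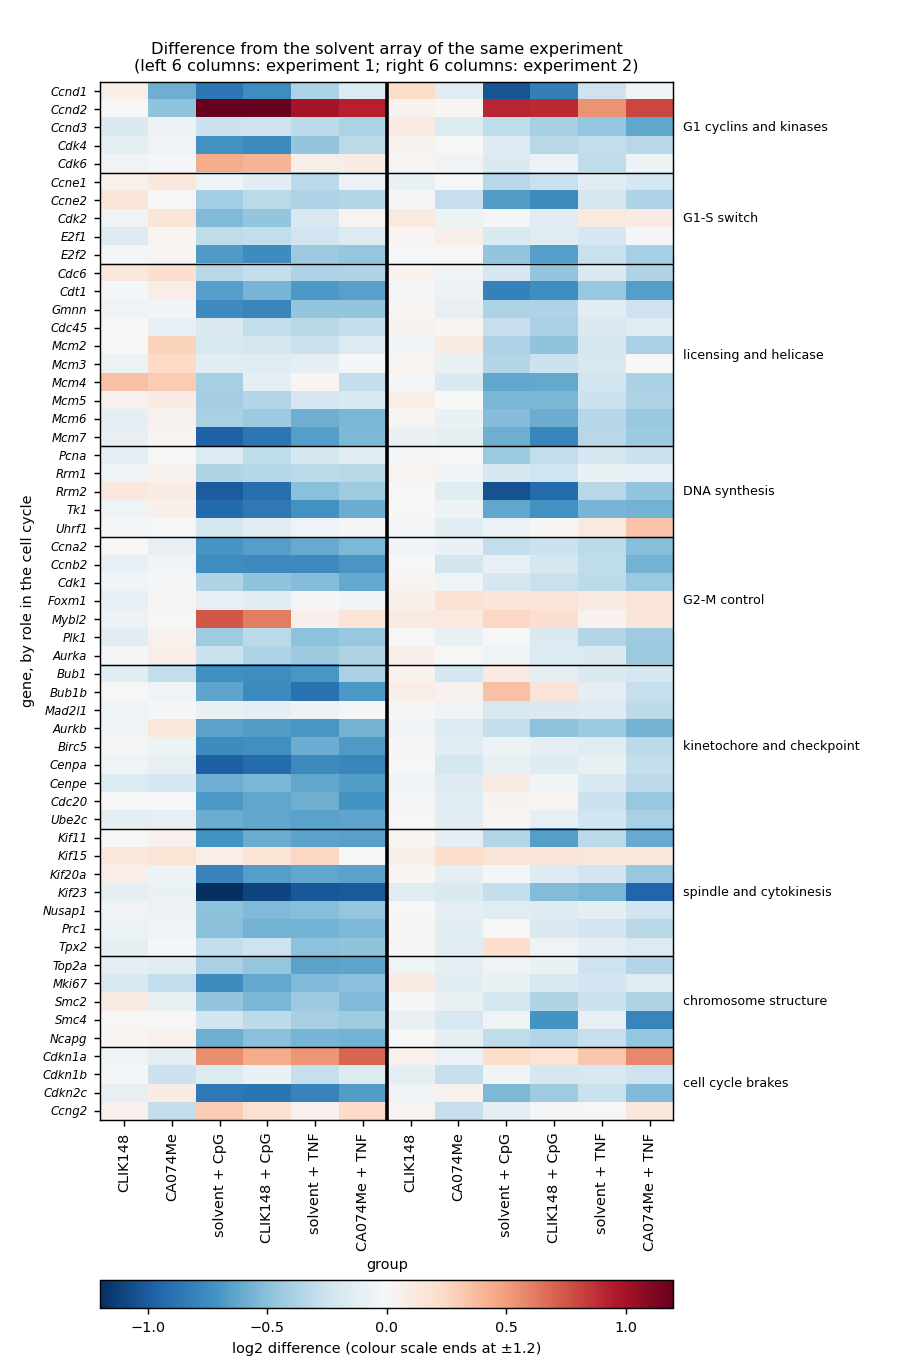
Log2 difference of each of 57 members (rows, grouped by role) from the solvent array of the same experiment, for the other 6 groups of experiment 1 (left of the black line) and experiment 2 (right). Colours run from blue (lower) to red (higher) and end at ±1.2. The columns of either inhibitor alone are pale, those with a stimulus are blue for most members, and the Ccnd2 row is red in the stimulus columns.

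Of the D-type cyclins, which bind Cdk4 and Cdk6 in G1, Ccnd1 and Ccnd2 moved in opposite directions with CpG. Ccnd1 (chr7:144929931-144939831, GRCm38.p6) stood at 11.18 and 11.65 log2 in solvent, 10.31 and 10.62 with CpG and 10.80 and 11.41 with TNF. It fell with CpG by 1.93-fold (log2 difference -0.95 ± 0.13, adjusted p = 0.00286), and both CpG arrays lay below both solvent arrays. With TNF its difference was -0.31 ± 0.13, with an adjusted p of 0.21.

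Ccnd2 (chr6:127125162-127152188) stood at 12.55 and 13.20 in solvent, 14.58 and 14.12 with CpG and 13.55 and 13.74 with TNF. Its rise with CpG was the largest among the members, 2.78-fold (1.47 ± 0.34, adjusted p = 0.0202), and it measured 2.03 and 0.91 in the 2 experiments. The TNF difference of 0.77 ± 0.34 was not called (adjusted p = 0.246), although both TNF arrays lay above both solvent arrays. The third D-type cyclin, Ccnd3, and the kinases did not pass the test under either stimulus. Ccnd3 differed by -0.28 with CpG and -0.39 with TNF, and Cdk4 by -0.44 and -0.39. Cdk6 differed by 0.44 and -0.18 with CpG in the 2 experiments, with opposite signs.

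Among the 5 genes of the G1-S switch, 3 fell with CpG and 1 with TNF, where 13.7% and 1.97% of all genes did. E2f2, an activating E2F factor, stood at 9.41 and 9.57 in solvent, 8.73 and 9.10 with CpG and 8.98 and 9.30 with TNF. It fell under both stimuli, with a difference of -0.58 ± 0.07 with CpG (adjusted p = 0.00242) and -0.35 ± 0.07 with TNF (adjusted p = 0.0386). Ccne2, an E-type cyclin, fell with CpG from 8.58 and 9.27 to 8.16 and 8.60 (-0.54 ± 0.13, adjusted p = 0.0228). E2f1, the founding E2F factor, fell by 0.24 ± 0.06 with CpG (adjusted p = 0.0314) and differed by -0.22 with TNF (adjusted p = 0.0947). Ccne1 and Cdk2 lay below solvent in the mean without passing the test, with differences of -0.20 and -0.27 with CpG.

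All 10 genes of origin licensing and the helicase lay below solvent under CpG in each experiment, where 41.6% of all genes did. Of the 10, 6 fell, where 13.7% of all genes did. Mcm7, a helicase subunit, stood at 11.75 and 12.11 in solvent and 10.78 and 11.53 with CpG, a fall of 1.71-fold (-0.77 ± 0.12, adjusted p = 0.0049). Cdt1, which loads the helicase at origins, stood at 10.41 and 10.85 in solvent, 9.75 and 10.03 with CpG and 9.72 and 10.39 with TNF. It fell under both, with a difference of -0.74 ± 0.10 with CpG (adjusted p = 0.00289) and -0.57 ± 0.10 with TNF (adjusted p = 0.0202). Gmnn, geminin, which restrains Cdt1, fell with CpG from 10.99 and 11.11 to 10.23 and 10.74 (-0.57 ± 0.12, adjusted p = 0.0168). The loader and its restrainer thus fell together with CpG.

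The other licensing genes that fell with CpG were Mcm4, Mcm5 and Mcm6, with differences of -0.51, -0.48 and -0.46. Mcm6 also fell with TNF (difference -0.46 ± 0.10, adjusted p = 0.0486), from 9.68 and 10.18 in solvent to 9.09 and 9.84. Mcm2, Mcm3, Cdc6 and Cdc45 differed by between -0.28 and -0.22 with CpG and did not pass the test. The median over the 10 was -0.39 in experiment 1 and -0.45 in experiment 2 with CpG, and -0.35 and -0.22 with TNF.

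The promoters of these genes were read for the motif of E2F factors, since E2f1 and E2f2 were themselves among the members that fell. Promoters of 300 bases, 250 before and 50 after the annotated start, came from RefSeq on GRCm38.p6, and 46 of the 57 members had at least 1. The motif was searched as TTTGGCGC, TTTCCCGC, TTTGCCGC or TTTCGCGC on both strands, and it stood in 2.26% of all 32851 promoters. It stood in 46.7% of the 15 promoters of the licensing and DNA synthesis members, which belong to 13 genes, and in 3 of the 23 promoters of the mitotic members. The windows of the licensing members that fell with CpG and held a match are shown, each 5′ to 3′ on the strand that carries the motif, with the motif in capitals.
Mcm7: gtgacgacgTTTCGCGCcaatttcgg
Cdt1: aactaccttTTTGGCGCcatggcgca
Mcm5: gctggacgtTTTGGCGCgaaagttct
Mcm6: ttggacgggTTTGGCGCgaagtagct
The Mcm7 window is at chr5:138171851-138171876 (minus strand), the Cdt1 window at chr8:122568038-122568063 (plus strand), the Mcm5 window at chr8:75109351-75109376 (minus strand) and the Mcm6 window at chr1:128359736-128359761 (minus strand). Outside these groups E2f2, Cdk1 and Ncapg, which fell with CpG, held a match, and so did Cdk2 and Kif15, which were not called. Cdc6, Mcm3 and Uhrf1, which were not called with CpG, held the motif too, so that a match did not separate the members that fell from those that did not.

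Of the 5 tested genes of DNA synthesis 4 fell with CpG and 2 with TNF, where 13.7% and 1.97% of all genes did. Rrm2, the small subunit of ribonucleotide reductase (chr12:24708254-24714146), stood at 11.09 and 11.61 in solvent, 10.10 and 10.57 with CpG and 10.59 and 11.28 with TNF. It showed the largest fall of all members with CpG, 2.03-fold (-1.02 ± 0.09, adjusted p = 0.000876), and measured -0.996 and -1.04 in the 2 experiments. With TNF it fell by 1.34-fold (-0.42 ± 0.09, adjusted p = 0.0401). Experiment 2 started higher and fell by a like amount with CpG.

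Tk1, thymidine kinase of the nucleotide salvage pathway (chr11:117815519-117826087), stood at 9.06 and 9.32 in solvent, 8.13 and 8.70 with CpG and 8.33 and 8.76 with TNF. It fell by 0.78 ± 0.09 with CpG (adjusted p = 0.00223) and fell by 0.65 ± 0.09 with TNF (adjusted p = 0.0131), the lowest adjusted p among the members with TNF. Pcna, the sliding clamp of the polymerases, fell with CpG from 12.88 and 12.99 to 12.71 and 12.55 (-0.30 ± 0.09, adjusted p = 0.0408). Rrm1, the large subunit of ribonucleotide reductase, fell by 0.28 ± 0.08 (adjusted p = 0.046), less than Rrm2 did. Uhrf1, which guides DNA methylation to replicated DNA, differed by -0.14 and was not called.

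The promoters of the replication members with the lowest CpG difference, Rrm2 and Tk1, are printed whole, 5′ to 3′ on the strand of the gene, with the CCAAT motif in capitals where it occurs.
Rrm2: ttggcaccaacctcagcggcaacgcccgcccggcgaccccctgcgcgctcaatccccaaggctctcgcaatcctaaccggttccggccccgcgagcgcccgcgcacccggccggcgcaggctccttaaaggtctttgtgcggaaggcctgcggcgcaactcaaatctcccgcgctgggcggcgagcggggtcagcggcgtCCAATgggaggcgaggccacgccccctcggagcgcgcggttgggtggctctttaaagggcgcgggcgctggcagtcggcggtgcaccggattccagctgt
Tk1: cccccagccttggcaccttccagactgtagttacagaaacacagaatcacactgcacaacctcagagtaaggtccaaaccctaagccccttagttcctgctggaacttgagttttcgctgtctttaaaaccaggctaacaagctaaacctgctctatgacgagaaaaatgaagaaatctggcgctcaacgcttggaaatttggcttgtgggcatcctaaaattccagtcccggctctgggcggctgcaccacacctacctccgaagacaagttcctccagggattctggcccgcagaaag
The Rrm2 promoter is at chr12:24708004-24708303 (plus strand) and the Tk1 promoter at chr11:117825965-117826264 (minus strand). Rrm2 held 1 CCAAT and no E2F match, and Tk1 held none of the motifs searched in this window. CCAAT, searched on both strands, stood in 80.0% of the promoters of the replication members, in 78.3% of those of the mitotic members and in 37.4% of all promoters.

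Among the 7 tested genes of G2-M control, Ccna2 and Cdk1 fell with CpG and Cdk1 alone passed the test with TNF. Of all genes 13.7% fell with CpG and 1.97% with TNF. Cdk1, the kinase of mitotic entry, stood at 10.64 and 10.68 in solvent, 10.28 and 10.48 with CpG and 10.12 and 10.37 with TNF. It fell by 0.28 ± 0.08 with CpG (adjusted p = 0.0345) and fell by 0.41 ± 0.08 with TNF (adjusted p = 0.0266). Ccna2, cyclin A, fell with CpG from 11.17 and 11.57 to 10.46 and 11.27 (-0.50 ± 0.13, adjusted p = 0.0265). In experiment 2 its CpG array lay above the solvent array of experiment 1, so the fall was seen only within each experiment.

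Ccnb2, a B-type cyclin, differed by -0.75 and -0.10 with CpG in the 2 experiments. Plk1 and Aurka, kinases of the mitotic spindle, differed by -0.21 and -0.15 with CpG and by -0.42 and -0.30 with TNF, none of them called. Mybl2, a transcription factor of cycling cells, and Foxm1, another, did not follow the rest. Mybl2 was dim, at 7.53 and 7.50 in solvent and 8.27 and 7.74 with CpG, and its difference of 0.49 ± 0.16 was not called (adjusted p = 0.0565). Foxm1 differed by 0.03 with CpG and 0.04 with TNF.

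Of the 9 kinetochore and checkpoint genes, all lay below solvent in the mean with both stimuli. With CpG 1 of the 9 fell, near the share of 13.7% over all genes. That gene was Aurkb, the kinase of the chromosomal passenger complex, at 10.20 and 10.45 in solvent, 9.56 and 10.16 with CpG and 9.50 and 9.9999 with TNF. It fell by 0.46 ± 0.13 with CpG (adjusted p = 0.0405), and the TNF difference of -0.57 ± 0.13 narrowly missed the threshold (adjusted p = 0.0577). Cdc20, an activator of the anaphase-promoting complex, stood at 12.02 and 12.23 in solvent, 11.33 and 12.27 with CpG and 11.43 and 11.97 with TNF. It was lower with CpG in experiment 1 only.

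The members of the group varied in this. With CpG 8 of the 9 lay further below solvent in experiment 1 than in experiment 2, and in experiment 2 5 lay above solvent and 4 below. The CpG difference of Cenpa, the centromeric histone, was -0.98 and -0.08 in experiments 1 and 2, that of the checkpoint kinase Bub1 -0.73 and 0.10, and that of its relative Bub1b -0.64 and 0.35. Birc5, survivin, measured -0.75 and -0.06, and Mad2l1, a checkpoint protein, -0.09 and -0.19, lower in experiment 2. The median over the 9 genes with CpG was -0.64 in experiment 1 and 0.03 in experiment 2. With TNF it was -0.64 and -0.17, and all 9 lay below solvent in both experiments, where 48.3% of all genes did. With TNF, Bub1b measured -0.89 and -0.10.

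Among the 7 genes of the spindle and of cytokinesis 1 fell with CpG and none was called with TNF. The 1 of 7 is near the 13.7% of all genes that fell with CpG. The gene that fell was Kif11, the kinesin that separates the spindle poles, which went with CpG from 9.43 and 9.72 to 8.71 and 9.38 (-0.53 ± 0.12, adjusted p = 0.0206), and measured 8.79 and 9.40 with TNF (difference -0.49, adjusted p = 0.0736). A weaker probe set of Kif11 lay above solvent with CpG, the one called member for which another bright probe set had the opposite sign, out of 17 with another bright probe set. Kif23, a kinesin of the cytokinetic midzone, stood at 10.47 and 10.59 in solvent, 9.27 and 10.30 with CpG and 9.45 and 10.04 with TNF. Its differences of -0.74 ± 0.23 and -0.78 ± 0.23 were as large as those of the called members but had wider errors (adjusted p = 0.0506 and 0.101). The median with CpG was -0.50 in experiment 1 and -0.03 in experiment 2. Kif15, a dim spindle kinesin, lay above solvent, by 0.12 with CpG and 0.19 with TNF, neither called.

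Of the 5 genes of chromosome structure, Ncapg and Smc2, both subunits of condensin, fell with CpG, where 13.7% of all genes did. Ncapg went from 8.97 and 9.39 to 8.39 and 9.08 (-0.45 ± 0.11, adjusted p = 0.0217), and Smc2 from 11.37 and 11.61 to 10.90 and 11.40 (-0.34 ± 0.09, adjusted p = 0.034). None of the 5 passed the test with TNF, where Top2a, topoisomerase II, differed by -0.44 ± 0.11 (adjusted p = 0.0753) and Ncapg by -0.41 ± 0.11 (adjusted p = 0.0722), and 4 of the 5 had an unadjusted p under 0.05. Mki67, the proliferation antigen Ki-67, measured -0.75 and -0.08 with CpG and was not called.

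**Figure D2:**
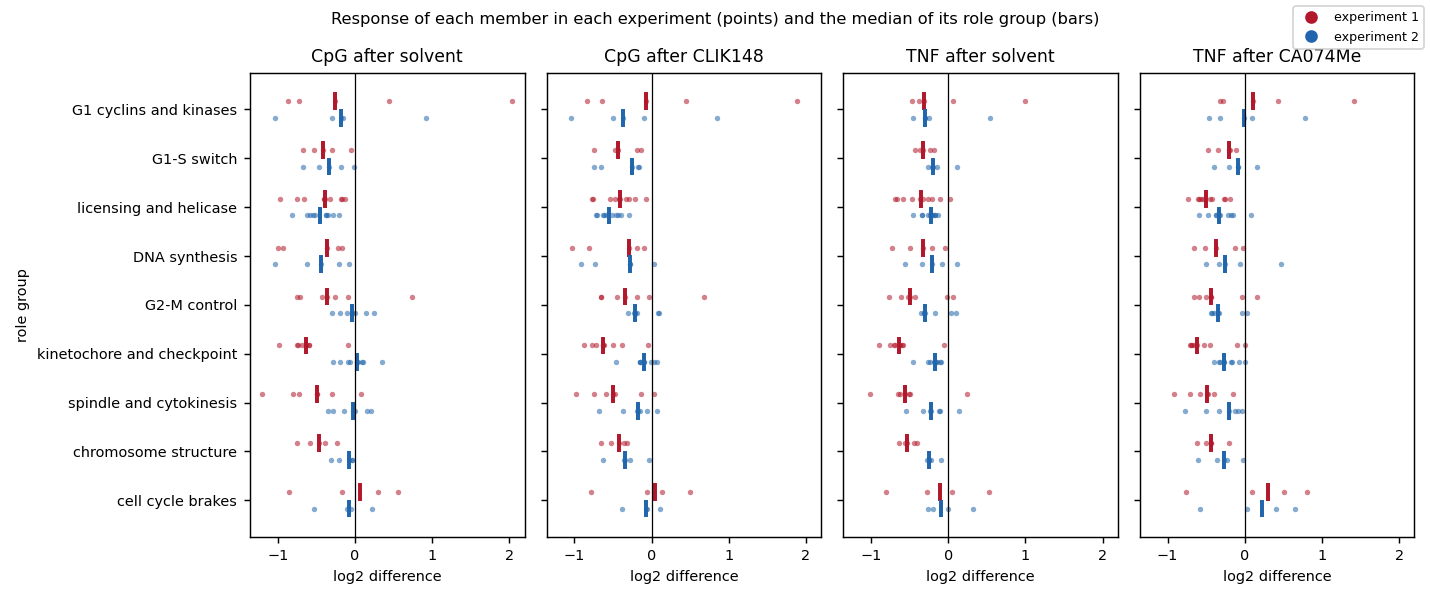
Log2 difference from the unstimulated group with the same pre-treatment for each member (points) in experiment 1 (red) and experiment 2 (blue), with the median of each role group (bars), for CpG and TNF after solvent or after the inhibitor. With CpG after solvent the licensing and DNA synthesis medians were alike in both experiments (-0.39 and -0.45, -0.36 and -0.44), whereas the kinetochore median was -0.64 in experiment 1 and 0.03 in experiment 2.

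Set side by side, the replication groups had like CpG medians after solvent in both experiments, and the mitotic groups had lower medians in experiment 1. The DNA synthesis median was -0.36 and -0.44, that of G2-M control -0.36 and -0.04, and that of chromosome structure -0.47 and -0.08. With 1 array per group in an experiment this difference between experiments has no replicate check and was not tested. With CpG after CLIK148 the kinetochore median was -0.63 and -0.094 and the spindle median -0.49 and -0.17, but the experiments lay closer for G2-M control, at -0.35 and -0.22, and for chromosome structure, at -0.43 and -0.35. The licensing median there was -0.41 and -0.55, and that of DNA synthesis -0.29 and -0.28. Some lists outside the cell cycle also lay lower on the CpG array of experiment 1, and others did not. With CpG after solvent the mean of 8 reference genes differed by -0.27 and -0.06 and that of 12 dendritic cell markers by -0.34 and -0.05, and the median of all genes by -0.11 and -0.01. Macrophage and monocyte markers differed by -0.37 and -0.30, and granulocyte markers by -0.02 and 0.02. Lymphocyte and plasmacytoid markers differed by 0.43 and 0.04, myeloid progenitor markers by 0.08 and -0.04, and erythroid and stromal markers by 0.05 and 0.03. The experiments also differed in level. In each of the 7 groups, 39 of the 57 members were higher in experiment 2, where 27.2% of all genes were, and none was lower in all 7. The median gap was 0.34, and it was smallest with CA074Me alone (0.14) and largest with CpG after solvent (0.49).

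The promoters of the mitotic members were read for the cell cycle homology region (CHR), written TTTGAA, through which many mitotic genes are controlled. It stood in 73.9% of 23 promoters from 22 mitotic genes, in 13.3% of those of the replication members and in 17.9% of all promoters, searched on both strands. The windows of the mitotic members that fell with CpG and held it are shown with the motif in capitals, 5′ to 3′ on the strand that carries it.
Kif11: cgcctcaatTTTGAAaaatggaga
Ncapg: cgatagttgTTTGAAaactctggc
Smc2: aactgttccTTTGAAtttcggcgc
Cdk1: cgcggcgagTTTGAAactgctggc
They are at chr19:37376354-37376377 (minus strand), chr5:45669886-45669909 (plus strand), chr4:52439238-52439261 (minus strand) and chr10:69352913-69352936 (minus strand). Members that were not called, such as Cdc20 and Ccnb2, held the motif as well.
Cdc20: cagttgggtTTTGAAggagccaat
Ccnb2: ggcgcggtaTTTGAAtcgcggacc
These lie at chr4:118437347-118437370 (minus strand) and chr9:70421536-70421559 (minus strand).

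Of the mitotic members with a promoter entry, Kif23 and Kif11 had the lowest CpG difference. Their promoters are printed whole on the strand of the gene, with CHR (or its reverse complement TTCAAA) and CCAAT (or ATTGG) in capitals, to show that both motifs stand close together near the start.
Kif23: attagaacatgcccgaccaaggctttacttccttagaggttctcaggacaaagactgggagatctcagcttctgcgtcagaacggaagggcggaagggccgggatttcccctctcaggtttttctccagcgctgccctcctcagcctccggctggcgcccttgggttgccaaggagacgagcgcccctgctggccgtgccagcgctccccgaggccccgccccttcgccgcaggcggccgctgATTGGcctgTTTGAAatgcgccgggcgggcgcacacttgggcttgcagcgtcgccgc
Kif11: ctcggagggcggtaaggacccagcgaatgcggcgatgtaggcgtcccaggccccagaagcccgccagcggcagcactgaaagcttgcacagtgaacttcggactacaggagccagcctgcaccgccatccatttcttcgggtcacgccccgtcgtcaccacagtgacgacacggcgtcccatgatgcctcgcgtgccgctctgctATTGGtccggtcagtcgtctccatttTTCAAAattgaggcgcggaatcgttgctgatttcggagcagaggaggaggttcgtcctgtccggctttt
The Kif23 promoter is at chr9:61946750-61947049 (minus strand) and the Kif11 promoter at chr19:37376132-37376431 (plus strand). A match is a run of letters and says nothing of binding in these cells. The 4 cell cycle inhibitors, with 6 promoters, held neither E2F nor CHR matches.

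The 4 inhibitors of the cycle did not move together. Cdkn1a, p21 (chr17:29090979-29100722), stood at 12.98 and 13.05 in solvent, 13.54 and 13.27 with CpG and 13.51 and 13.38 with TNF. It rose with CpG by 1.31-fold (0.39 ± 0.11, adjusted p = 0.0378). The TNF difference was as large, 0.43 ± 0.11, but was not called (adjusted p = 0.0736), and under either stimulus both arrays lay above both solvent arrays. Cdkn2c, p18, an inhibitor of Cdk4 and Cdk6, went the other way, from 10.55 and 10.75 in solvent to 9.69 and 10.21 with CpG and 9.75 and 10.49 with TNF. It fell by 0.70 ± 0.14 with CpG (adjusted p = 0.0131), and the TNF difference was -0.53 ± 0.14 (adjusted p = 0.0809). Cdkn1b, p27, differed by -0.11 and -0.24, and Ccng2, cyclin G2, by 0.10 and 0.03, none of them called. With reference-gene scaling the CpG difference of Cdkn1b was 0.061.

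**Figure D3:**
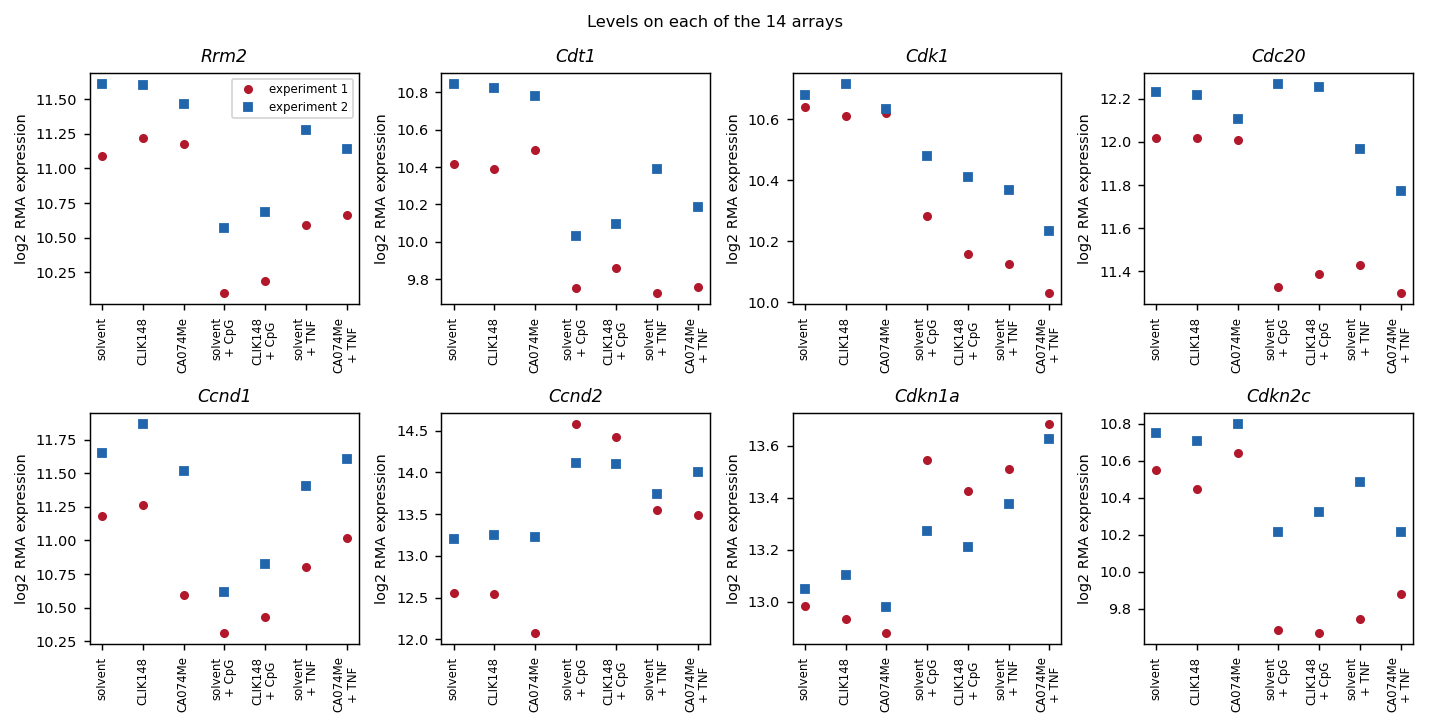
Log2 expression of 8 members on each of the 14 arrays, by group, in experiment 1 (red circles) and experiment 2 (blue squares). Rrm2 and Cdt1 are lower on every stimulated array than on the unstimulated arrays of the same experiment, Cdc20 is lower with CpG in experiment 1 only, and Ccnd2 and Cdkn1a are higher on every stimulated array.

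CpG and TNF were then compared directly. Rrm2 was the 1 member of 57 that passed the test, lower with CpG (CpG minus TNF -0.60 ± 0.09, adjusted p = 0.035), where 0.435% of all genes passed and 0.0902% were lower. Both CpG arrays, at 10.10 and 10.57, lay below both TNF arrays, at 10.59 and 11.28. Without the experiment as a block it was not called, where 0.0082% of all genes were, and neither were any members when the first CpG array or either TNF array was left out. Without the second CpG array the count was higher, but the share of all genes called in that fit is not given here. Ccnd2 was 0.70 ± 0.34 higher with CpG (adjusted p = 0.357) and Ccnd1 was lower (CpG minus TNF -0.64 ± 0.13, adjusted p = 0.0779), so that CpG and TNF were not shown to differ in these cyclins. Over all members the median CpG minus TNF difference was -0.02. The mitotic genes lay between the stimuli in either order, with a kinetochore median of -0.03 in experiment 1 and 0.26 in experiment 2.

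The response to CpG was measured again in cells pre-treated with CLIK148, against CLIK148 alone, on arrays that the first comparison did not use. Here 24 members were called, where 17% of all genes were. Of these 23 fell and 1 rose, against 13% and 4.03% of all genes. Of the 23 members called in CpG after solvent 20 were called again (87.0%), which is 83.3% of the 24 called after CLIK148, all in the same direction. The share of all genes called again was not counted. Both responses were tested with the same estimate of spread, so their calls are not independent. The sign was the same for 57 of 57 members, where 85.7% of all genes kept theirs. The one that rose was again Ccnd2, from 12.55 and 13.25 to 14.42 and 14.10 (1.36 ± 0.34, adjusted p = 0.0292).

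The largest falls after CLIK148 were those of Rrm2, Ccnd1, Tk1 and Mcm7. Rrm2 went from 11.22 and 11.61 with CLIK148 to 10.19 and 10.69 with CLIK148 plus CpG (-0.98 ± 0.09, adjusted p = 0.00148), and Ccnd1 from 11.26 and 11.87 to 10.43 and 10.83 (-0.94 ± 0.13, adjusted p = 0.00393). Tk1 fell by 0.77 ± 0.09 (adjusted p = 0.0029) and Mcm7 fell by 0.74 ± 0.12 (adjusted p = 0.00752). Of the licensing genes 9 of 10 fell, the exception being Mcm3 at -0.18. Among the 9, Cdc45 had another bright probe set of the opposite sign. It was the 1 such called member, out of 18 with another bright probe set. Cdkn1a, at 0.30, was not called (adjusted p = 0.0869), and of the other inhibitors Cdkn2c fell by 0.58 ± 0.14 (adjusted p = 0.0269). Without the block 0 members were called, where 0.812% of all genes were. With any CLIK148 or CLIK148 plus CpG array left out fewer members were called, and the members' median lay between -0.42 and -0.29. The share of all genes called in these fits is not given here, so their counts are not set against it.

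TNF was likewise measured after CA074Me, against CA074Me alone. There 20 members were called, where 11.1% of all genes were. Of these 18 fell and 2 rose, against 6.14% and 4.96% of all genes. The 6 members called with TNF after solvent were all called again in the same direction, which is 30.0% of the 20. Here too the share of all genes called again was not counted, and the estimate of spread was shared. The sign was the same for 51 of 57 members, where 78.6% of all genes kept theirs, and it differed for Ccnd1, Cdk6, Cdk2, Foxm1, Kif15 and Cdkn1b. Without the block 1 member was called, Cdkn1a, where 1.3% of all genes were. With any CA074Me or CA074Me plus TNF array left out fewer members were called, and the members' median lay between -0.45 and -0.22. For these fits too the share of all genes called is not given here, so their counts are not set against it.

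After CA074Me the largest falls were those of Kif23 (-0.85 ± 0.23, adjusted p = 0.0461) and Cdkn2c (-0.67 ± 0.14, adjusted p = 0.0191). Cdkn1a rose from 12.88 and 12.98 to 13.69 and 13.63, by 0.73 ± 0.11 or 1.66-fold (adjusted p = 0.00518, and 0.0232 without the block). Cdt1 fell by 0.66 ± 0.10 (adjusted p = 0.0046) and Kif11 fell by 0.60 ± 0.12 (adjusted p = 0.0179). Ccng2, which is high in cells that have stopped dividing, rose from 12.31 and 12.67 to 12.82 and 13.08 (0.46 ± 0.10, adjusted p = 0.023). Licensing genes made up 6 of the 18 that fell, and Cdk1, Plk1 and Aurka were the G2-M genes among them. Plk1 and Aurka fell here and were not called with TNF after solvent, a difference that no interaction test called.

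E2f2, Cdt1, Mcm6, Rrm2, Tk1 and Cdk1 were called in all 4 responses. The 6 join the G1-S switch, licensing, nucleotide supply and mitotic entry. Each fell in every one of the 4 comparisons, where 2.38% of all genes were called in all 4 and 1.61% fell in all 4. Over the 4, the solvent pair and the inhibitor pair share no arrays, but CpG and TNF after solvent share the solvent arrays.

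**Figure D4:**
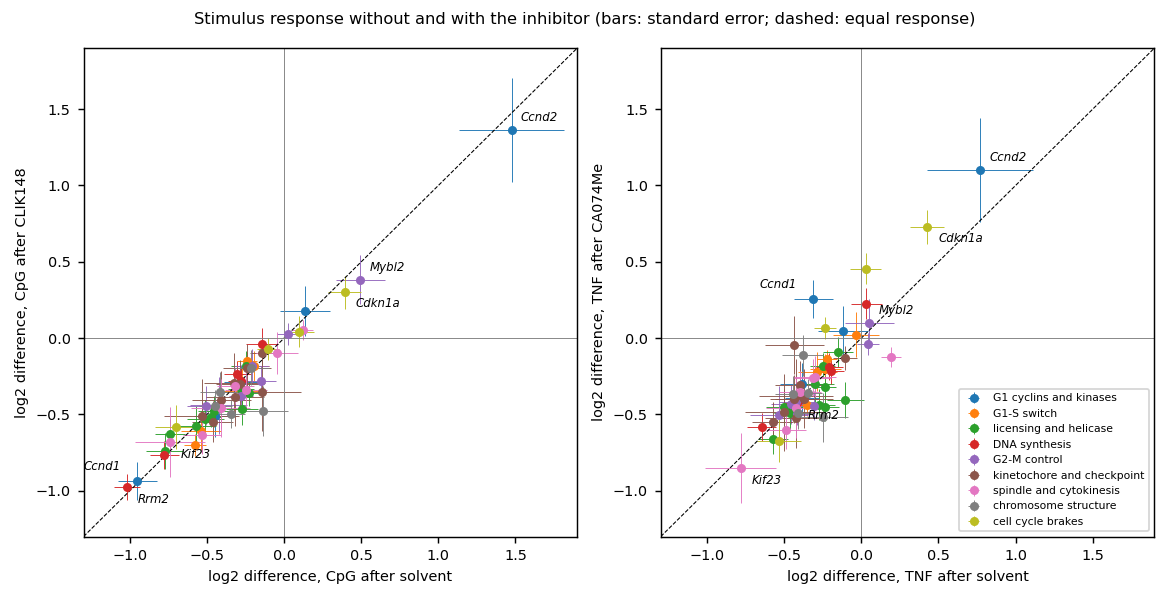
Log2 difference of 57 members, coloured by role, for CpG after solvent (horizontal) against CpG after CLIK148 (vertical) on the left, and for TNF after solvent against TNF after CA074Me on the right, with bars of 1 standard error. Points near the dashed line responded alike, Ccnd2 is highest in each panel, and Ccnd1 lies at -0.31 after solvent and 0.26 after CA074Me on the right.

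Without a stimulus neither inhibitor moved a member past the threshold. For CLIK148 against solvent limma called 0 of 57 in both fits, and at an unadjusted p under 0.05 the count was 0. Of all genes 0% were called. The differences of largest size were those of Mcm4, 0.16 (95% interval -0.11 to 0.43; its other probe set gave 0.014), and Ccnd1, 0.15 (-0.13 to 0.44). Mcm4 measured 10.86 and 11.34 in solvent and 11.21 and 11.32 with CLIK148, higher in experiment 1 only. The median half-width of the members' 95% intervals was 0.27 log2.

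For CA074Me against solvent 0 members were called. An unadjusted p under 0.05 was found for 4, Ccnd1, Ccng2, Cdkn1b and Kif15, where 2.76% of all genes had one. In the fit without the block 1 member had one, and the share of all genes there is not given here. Ccnd1 stood at 11.18 and 11.65 in solvent and 10.59 and 11.52 with CA074Me, a difference of -0.36 ± 0.13 (interval -0.65 to -0.08). Ccng2 went from 12.60 and 12.95 to 12.31 and 12.67, a difference of -0.28 ± 0.10 (interval -0.51 to -0.05). Fitted on the solvent and CA074Me arrays alone, 2 members were called, both lower, where the fit over all groups called none. The share of all genes called in that smaller fit is not given here, so the 2 are not set against it. No gene of all those tested passed for CA074Me in the fit over all groups.

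The inhibitors, both given at 5 µM for the same 1 h, were also set against each other. With 1 pair compared, 0 members were called and 3 had an unadjusted p under 0.05, where 2.36% of all genes had one. In the fit without the block 0 members had one. Ccnd1 was 0.51 ± 0.13 higher with CLIK148 than with CA074Me (interval 0.23 to 0.80, adjusted p = 1), at 11.26 and 11.87 and 10.59 and 11.52. Ccng2 was 0.32 ± 0.10 higher (interval 0.09 to 0.55), at 12.64 and 12.99 and 12.31 and 12.67. The lower member of each pair was the CA074Me array in both experiments for both genes. A p above the threshold does not show that the compounds act alike on them.

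Under a stimulus the result was the same. For CLIK148 plus CpG against solvent plus CpG 0 members were called. An unadjusted p under 0.05 was found for 1, Smc4, a condensin subunit, near the share of 1.85% over all genes. In the fit without the block 0 members had one. Smc4 stood at 11.84 and 12.46 with CpG and 11.76 and 11.78 with CLIK148 plus CpG, a difference of -0.38 ± 0.16 (interval -0.75 to -0.02) that came from experiment 2, and its other probe sets gave -0.42 and -0.23. Ccnd1 differed by 0.17, and by -0.14 and 0.086 in its other probe sets. For CA074Me plus TNF against solvent plus TNF 0 were called, where 0.0082% of all genes were, and 0 had an unadjusted p under 0.05 in either fit. Smc4 again differed most, at 11.68 and 12.40 with TNF and 11.65 and 11.70 with CA074Me plus TNF (-0.36 ± 0.16, interval -0.73 to 0.002), and Mcm4 differed by -0.24. Other probe sets gave -0.38 and -0.092 for Smc4 and -0.078 for Mcm4. On both arrays with inhibitor and stimulus of experiment 2, Smc4 was lower than on the other 5 arrays of that experiment.

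The test of whether an inhibitor altered the response, its interaction with the stimulus, called 0 members for either pair. For CLIK148 and CpG the count at an unadjusted p under 0.05 was 0 in both fits, and the largest differences between responses were Smc4 (-0.34 ± 0.23, interval -0.86 to 0.18) and Bub1b (-0.21). For CA074Me and TNF 4 had an unadjusted p under 0.05, where 2.49% of all genes had one. Without the block 1 member had one, and the share of all genes there is not given here. Ccnd1 differed most, with a TNF response 0.57 ± 0.18 higher after CA074Me (interval 0.17 to 0.97, adjusted p = 1), followed by Ccng2 (0.43 ± 0.14, interval 0.11 to 0.75). The other probe sets of Ccnd1 gave 0.47 and 0.21, and that of Ccng2 0.37. With the Ccnd1 probe set at 0.21 the TNF response was below 0 after both solvent and CA074Me.

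**Figure D5:**
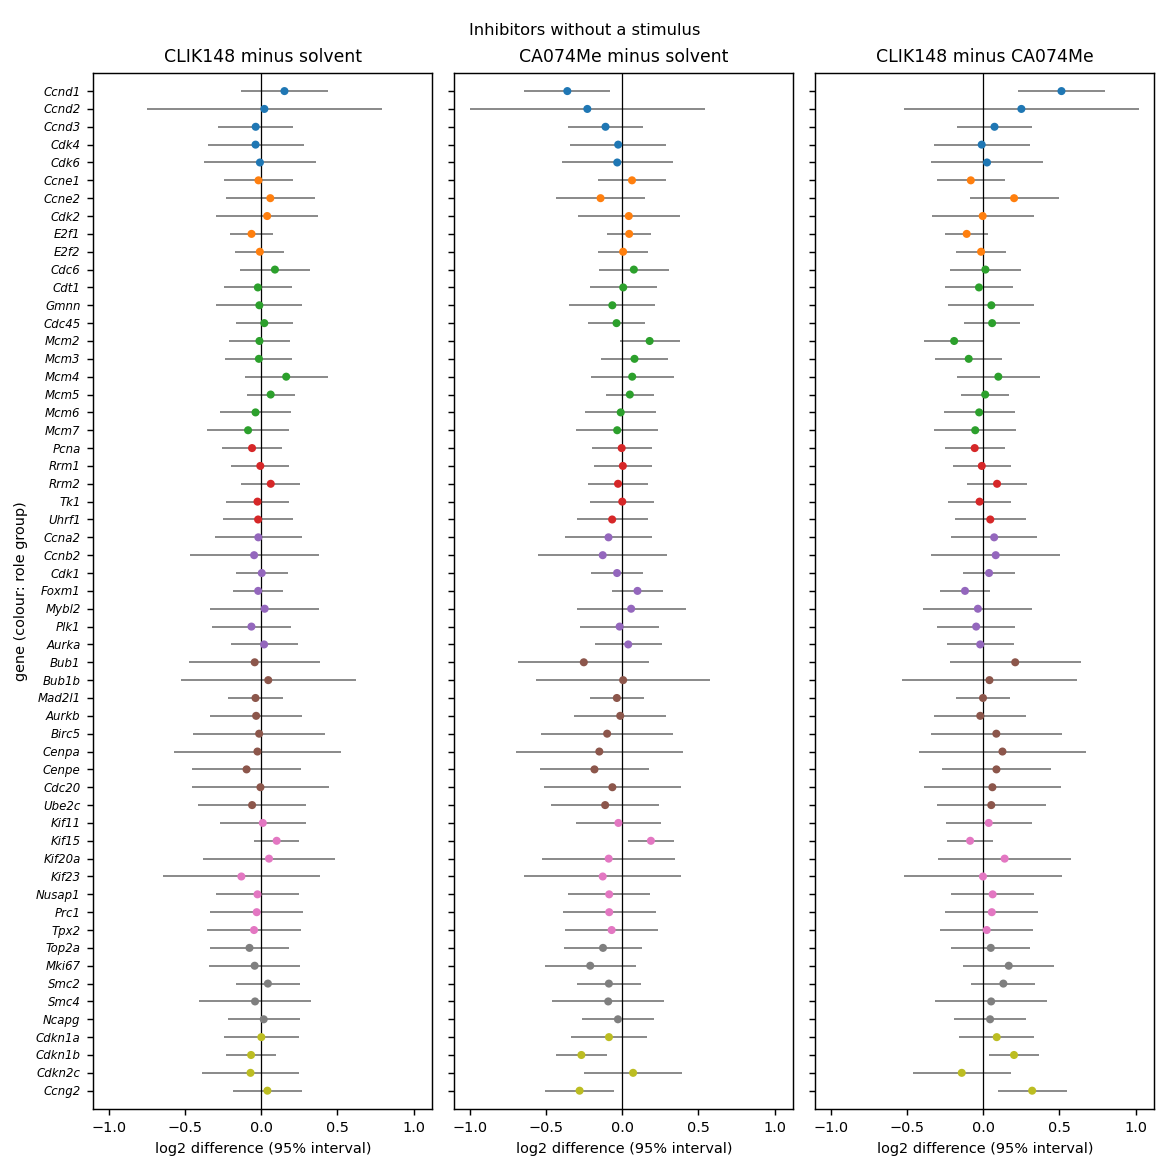
Log2 difference with its 95% interval for each of 57 members, coloured by role, for CLIK148 minus solvent, CA074Me minus solvent and CLIK148 minus CA074Me, all without a stimulus. Most intervals span 0, and no member was called. Ccnd1 lies at -0.36 for CA074Me and at 0.51 for CLIK148 minus CA074Me.

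Further genes of the same pathways were listed by function and read in the same fit. Of 37 other replication genes 21 fell with CpG, 5 with TNF, 22 with CpG after CLIK148 and 10 with TNF after CA074Me, and none rose. Of all genes 13.7%, 1.97%, 13% and 6.14% fell in these comparisons, and without the block 0 of the 37 were called in each. Dnmt1, which copies DNA methylation after replication, fell by 0.86 ± 0.12 with CpG (adjusted p = 0.00362) and fell by 0.64 ± 0.12 with TNF (adjusted p = 0.0292). Pold1, the catalytic subunit of polymerase delta, fell by 0.74 ± 0.15 with CpG (adjusted p = 0.0119) but differed by -0.10 with TNF. Rpa1, a subunit of the single-strand binding protein, fell with both (differences -0.64 ± 0.07 and -0.40 ± 0.07, adjusted p = 0.00151 and 0.0202). With TNF, Dut, which clears dUTP, fell by 0.46 ± 0.09 (adjusted p = 0.0348) and Pole2, a subunit of polymerase epsilon, fell by 0.41 ± 0.07 (adjusted p = 0.0242).

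Of 40 other mitotic genes tested 14 fell with CpG, 1 with TNF, 12 with CpG after CLIK148 and 9 with TNF after CA074Me, and none rose. Set against the same shares of all genes, the 1 of 40 with TNF is near the 1.97% over all genes, and without the block 0 of the 40 were called in each. With CpG the condensin subunit Ncapd2 fell by 0.62 ± 0.18 (adjusted p = 0.0463), the cytokinesis regulator Ect2 fell by 0.58 ± 0.15 (adjusted p = 0.0305) and Fbxo5, an inhibitor of the anaphase-promoting complex, fell by 0.58 ± 0.13 (adjusted p = 0.0166). With TNF the 1 that fell was the condensin subunit Ncaph (-0.50 ± 0.09, adjusted p = 0.02).

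Among 20 pocket proteins and E2F regulators 7 fell and 1 rose with CpG, where 13.7% and 6.18% of all genes did. The 1 of 20 that rose is near the share over all genes. With TNF 1 fell, where 1.97% of all genes did. Without the block 1 was called with CpG and 0 with TNF, where 1.92% and 0.115% of all genes were. Myc, a driver of growth and of cycle entry, stood at 10.27 and 10.20 in solvent, 9.61 and 9.38 with CpG and 9.77 and 9.49 with TNF. It fell by 0.74 ± 0.10 with CpG (adjusted p = 0.00332, and 0.0431 without the block) and fell by 0.60 ± 0.10 with TNF (adjusted p = 0.0188). E2f7, a repressing E2F factor, fell by 0.60 ± 0.07 with CpG (adjusted p = 0.0023) and Tfdp2, a dimer partner of E2F factors, fell by 0.50 ± 0.08 (adjusted p = 0.0049). The gene that rose was Rbl2, a pocket protein of resting cells (0.23 ± 0.06, adjusted p = 0.0291).

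Of 14 tested kinase inhibitors and p53 targets beyond the members 3 rose and 3 fell with CpG, where 6.18% and 13.7% of all genes did. With TNF 1 rose, where 1.14% of all genes did. Without the block 1 was called with CpG and 0 with TNF, where 1.92% and 0.115% of all genes were. Cdkn2b, p15, an inhibitor of Cdk4 and Cdk6, stood at 9.31 and 9.65 in solvent, 11.61 and 11.005 with CpG and 10.78 and 10.48 with TNF. It rose by 3.55-fold with CpG (1.83 ± 0.23, adjusted p = 0.00261, and 0.0129 without the block) and by 2.22-fold with TNF (1.15 ± 0.23, adjusted p = 0.0383). Cdkn2a, its neighbour gene, went from 7.72 and 8.97 to 9.47 and 9.55 with CpG (1.16 ± 0.28, adjusted p = 0.0226). Plk2, a kinase induced by stress, rose with CpG by 1.06 ± 0.30 (adjusted p = 0.0392). Cdkn2b and Cdkn2c, which inhibit the same kinases, thus moved in opposite directions with CpG.

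Genes that respond to the stimuli were read as a check, and 6 of 6 rose with CpG, led by Il12b (3.71 ± 0.59, adjusted p = 0.00559), and 2 of 6 with TNF. Markers of the cells that a marrow culture can hold were read as well. All 12 dendritic cell markers lay above the overall median on all 14 arrays, and their mean was 12.16 to 12.28 log2 with solvent, 11.94 to 12.11 with CpG and 12.01 to 12.09 with TNF. Of the 9 myeloid progenitor markers measured, all above the median on all 14 arrays, only Cd34 was called. Of all genes 19.8% were called with CpG and 3.11% with TNF. Cd34 stood at 9.44 and 10.28 in solvent, 7.81 and 9.28 with CpG and 8.12 and 9.43 with TNF (-1.32 ± 0.16 and -1.09 ± 0.16, adjusted p = 0.00242 and 0.0145). The mean over the 9 was 9.68 to 10.14 with solvent, 9.75 to 10.10 with CpG and 9.47 to 10.01 with TNF.

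The 9 macrophage and monocyte markers had a mean of 11.72 to 12.18 with solvent, 11.42 to 11.81 with CpG and 11.43 to 11.62 with TNF. Of the 9, 4 fell with CpG, where 13.7% of all genes did. With TNF 0 fell, where 1.97% of all genes did, and 3 had an unadjusted p under 0.05, where 20.5% did. The 8 granulocyte markers measured were bright, with a mean of 12.28 to 12.66 with solvent, 12.30 to 12.64 with CpG and 12.25 to 12.81 with TNF, and 0 were called for either, with 0 at an unadjusted p under 0.05. Of the 9 lymphocyte and plasmacytoid markers measured 0 of the 7 tested were called with CpG, where 1 had an unadjusted p under 0.05, and their mean was 8.34 to 8.65 with solvent and 8.68 to 8.76 with CpG. Cd3g and Cd79a were above the median on no array. Of the 8 erythroid and stromal markers measured 6 were above it on no array. The part of a shift in cell types in the fall of the cell cycle genes was not tested.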

How the data were processed

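Expression was measured in total RNA of 14 dendritic cell cultures on Affymetrix mouse arrays, 100 ng of RNA being labelled per array, per the labels' protocols. Per the submitters' processing notes the authors used R 3.0.1, and the deposited values are log2 RMA summaries. RMA corrects background and quantile-normalises, which removes changes that most genes share. Of 45101 probe sets 64 controls were left out, and 34945 name 1 gene. The probe set with the highest mean stood for a gene, and 43 members have several. Genes above the overall median of 7.52 on at least 2 arrays were tested. Array medians lay between 7.48 and 7.54, and the 2 arrays of a group correlated with r from 0.981 to 0.992. The number of arrays limits the precision.

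The fit, in limma 3.58.1 (R 4.3.3), covered all 7 groups and took the experiment as a block, leaving 6 residual degrees of freedom, since the design text names 2 independent experiments of all conditions. Over the 21 pairs of groups the deviations of same-numbered arrays had r of 0.455 to 0.935, and the numbers therefore pair the arrays. Tests were 2-sided, P values were adjusted by Benjamini-Hochberg within each of 12 comparisons, and intervals are 95%. The script was tested on simulated data. Alternatives were no block, filters, averaging over probe sets, cyclic loess, scaling on 8 reference genes, array weights, the compared groups alone, and each array left out.

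Members, lists and tests were chosen with earlier results of these data known. The text names up to 3 called members per role group in the CpG and TNF comparisons, otherwise the 2 of largest difference, all 4 inhibitors, up to 5 called members elsewhere and 3 called genes per other list. Further members were chosen after their values were seen.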

Additional observations from a re-analysis of the deposited data

Results flagged for a closer look

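In 3 members the response to TNF had 1 sign in both experiments after solvent and the opposite sign in both after CA074Me. Ccnd1, cyclin D1, measured -0.38 and -0.24 with TNF after solvent and 0.43 and 0.09 after CA074Me, a difference between the responses of 0.5683 log2. This is its brightest probe set. Of the other 2, one gave -0.38 and 0.094 (difference 0.47) and the other -0.39 and -0.18 (difference 0.21), the latter with no change of sign. Kif15, a dim spindle kinesin near the overall median of the arrays, measured 0.24 and 0.14 after solvent and -0.15 and -0.09 after CA074Me, a difference of -0.314. Cdkn1b, p27, measured -0.27 and -0.20 and 0.10 and 0.03, a difference of 0.3007. Its other probe set gave -0.23 after solvent and -0.32 after CA074Me, a difference of -0.090, with no change of sign. The interaction test in limma gave an adjusted p of 1.00 for each of the 3, so none is called. The same 3 genes differed between CA074Me alone and solvent by -0.36, 0.19 and -0.27, and the CA074Me arrays enter both that difference and the interaction.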

How the results depend on the processing

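Counts of called members changed with the settings more than the differences did. Shares of all genes called are given above for the main fit and the fit without the block. For the other settings they are not given, so those counts do not show whether the members moved more than other genes. Without the replicate block the counts were 0 for CpG after solvent, 0 for TNF after solvent, 0 for CpG against TNF, 0 for CpG after CLIK148 and 1 for TNF after CA074Me. Scaling on reference genes gave 11, 1, 0 and 12 for the first 4 of these and members' medians of -0.12 for CpG after solvent, -0.21 for TNF after solvent and -0.19 for CpG after CLIK148. It moved the median of all genes from -0.05 to 0.11 with CpG. The members' median relative to all genes was -0.23 with CpG and -0.29 with TNF, on the deposited scale and with reference genes. Reference-gene scaling takes the same value from every gene of an array, so this relative median could not change. Under cyclic loess it was -0.26 with CpG and -0.27 with TNF. One reference gene, Gusb, itself fell with CpG (-0.72, adjusted p = 0.0120). Array weights gave 8, 30 and 0 for CpG after solvent, TNF after solvent and CpG against TNF, and 32 for TNF after CA074Me. Fits on the compared groups alone, with fewer arrays, gave 0 for CpG after solvent, 0 for CpG against TNF, 0 for CpG after CLIK148, 39 for TNF after CA074Me, 2 for CA074Me against solvent and 2 for CLIK148 against CA074Me. Leaving out 1 array, whose partner is then assumed to vary like the other groups, gave 7 to 38 for CpG after solvent, 0 to 4 for TNF after solvent, 0 to 2 for CpG against TNF, 5 to 14 for CpG after CLIK148 and 0 to 18 for TNF after CA074Me. The members' medians then ranged from -0.44 to -0.23 for CpG after solvent, -0.41 to -0.27 for TNF after solvent, -0.42 to -0.29 for CpG after CLIK148 and -0.45 to -0.22 for TNF after CA074Me. Signs that turned were Cdkn1b with CpG (0.061, reference genes) and, with 1 array left out, Ccng2 with TNF (-0.038 to 0.093), Ccng2 with CpG (-0.076 to 0.27) and the Bub1b interaction of CLIK148 with CpG (-0.52 to 0.093). The gap between experiments, checked under settings chosen after seeing the data, was 0.26 to 0.29 under cyclic loess, reference genes or the mean of probe sets. Causes other than the smaller fits were not tested.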
